A study of Mus musculus with 12 samples.

Results

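The genes described here are Prps1, Prps2, Ppat, Gart, Pfas, Paics, Adsl and Atic, which encode the enzymes that build the purine ring from ribose 5-phosphate, and Aprt, which recycles adenine. They were taken by name, by a rule that uses no measured value, and the array row with the highest mean was taken for each symbol. Of the 9 genes, 8 had a row on the array, 1 each, among 22206 transcript clusters tested. No row carried the symbol Pfas (phosphoribosylformylglycinamidine synthase), which was not analysed here, so that 7 genes of de novo synthesis and Aprt remained.

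Purine ring synthesis starts from phosphoribosyl pyrophosphate (PRPP), made by the PRPP synthetases Prps1 and Prps2. Ppat then carries out the committed step, and Gart, Pfas, Paics, Adsl and Atic complete the ring as inosine monophosphate (IMP), the parent of AMP and GMP. Salvage enzymes such as Aprt and Hprt instead join a free base to PRPP. Mercaptopurine (6-MP), a purine analogue used against inflammatory bowel disease, is activated through Hprt, and its methylated nucleotide is known to inhibit the Ppat enzyme.

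Mouse ENS (enteric nervous system) primary cultures, grown from the gut of embryos, were profiled on 12 Clariom S microarrays, 3 for each of 4 groups. The sample records give the age of the embryos as e14.5, while the methods give a range of days that ends at e14.5. The groups were LPS + 6-MP (6-MP at 50 µM, 16 h ahead of a 6 h exposure to LPS at 10 ng/ml), LPS, 6-MP and untreated controls. All cultures came from the Sox10flox mouse line, whose modification the methods call irrelevant to the study, and the arrays of a group are 3 independent experiments according to the methods. The authors deposited 1 log2 value for each cluster and array, so that a difference of 1 is a 2-fold difference.

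The cultures responded to LPS: the cytokine gene Tnf was higher by 6.86 on the log2 scale in LPS arrays than in control arrays (SE 0.50, limma adjusted p = 1.01e-05). Markers of several cell types were present. Silent genes were gauged from 1452 receptor clusters (smell, pheromone and taste), 90% of which lay under 5.78. Above that level were 12 of 13 neuronal, 5 of 8 glial, 10 of 10 smooth muscle, 10 of 11 macrophage and 12 of 12 epithelial markers. So were 9 of 9 mesenchymal and 5 of 7 endothelial markers. Of the glial markers, Sox10 and S100b did not reach that level. By the shares in the methods, given as a personal observation, glia and neurons were a minority of the cells. All values average over these cell types, and fewer cells of a type cannot be told apart from less RNA per cell. All 8 purine genes lay above 5.78 in their mean over the 12 arrays.

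The start regions of Ppat, Paics and Atic are shown because Ppat and Paics lie head to head and because Paics and Atic hold an E-box, the site bound by Myc, whose own gene rose in the mean effect of LPS (below). Each stretch runs from 250 bases before the annotated start to 50 bases after it (RefSeq, GRCm38.p6), 5′ to 3′ on the gene's own strand. Capitals mark the E-box CACGTG. The stretches are chr5:76951529-76951828 on the minus strand for Ppat, chr5:76951052-76951351 on the plus strand for Paics and chr1:71556906-71557205 on the plus strand for Atic.
Ppat: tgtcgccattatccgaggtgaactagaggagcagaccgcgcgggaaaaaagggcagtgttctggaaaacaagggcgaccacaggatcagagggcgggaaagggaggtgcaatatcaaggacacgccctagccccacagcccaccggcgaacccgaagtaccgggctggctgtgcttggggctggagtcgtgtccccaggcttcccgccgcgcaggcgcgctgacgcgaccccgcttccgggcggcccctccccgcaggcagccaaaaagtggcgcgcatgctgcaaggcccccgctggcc
Paics: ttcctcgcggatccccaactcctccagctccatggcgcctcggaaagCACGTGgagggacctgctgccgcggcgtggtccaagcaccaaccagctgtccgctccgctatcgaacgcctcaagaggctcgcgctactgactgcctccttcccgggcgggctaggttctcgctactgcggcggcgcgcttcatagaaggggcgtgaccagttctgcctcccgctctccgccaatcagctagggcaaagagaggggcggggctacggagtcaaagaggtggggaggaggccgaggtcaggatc
Atic: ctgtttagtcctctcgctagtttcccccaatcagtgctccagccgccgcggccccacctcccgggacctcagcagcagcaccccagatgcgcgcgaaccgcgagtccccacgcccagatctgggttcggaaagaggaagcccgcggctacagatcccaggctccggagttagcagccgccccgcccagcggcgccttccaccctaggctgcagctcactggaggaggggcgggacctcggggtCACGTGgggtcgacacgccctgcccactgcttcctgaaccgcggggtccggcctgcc
In Paics the E-box begins 203 bases before the start, and in Atic 7 bases before it. Promoters of this length were matched for 8 of the 9 genes, all but Pfas. The E-box, which reads the same on both strands, occurred in 2 of these 8, and in 7.15% of 32851 such stretches of all genes. The GC box GGGCGG, searched on both strands, occurred in 7 of 8 (all but Prps2), against 35.7% of all stretches, and the CCAAT box CCAAT, on both strands, in Atic, Paics, Gart and Prps1, against 37.4%. None of the 3 motifs is contained in another on either strand. A match is a description of the sequence only. In the RefSeq annotation the 5′ ends of Ppat and Paics overlap by 277 bases on opposite strands, and whether array probes lie there is not given in the sources used here.

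The first question was whether LPS, alone or after 6-MP, changed the expression of these genes. None of the 8 genes passed the test in LPS cultures against control cultures (limma, Benjamini-Hochberg adjusted p under 0.05 over all 22206 clusters), where 1.81% of all clusters passed. None passed in LPS + 6-MP against 6-MP (background 1.64%) or in the mean of both comparisons, called the mean effect of LPS below (background 3.99%). At an unadjusted p under 0.05, 0 of 8 genes passed in these 3 comparisons, where 9.01%, 11.2% and 16.2% of all clusters did, in that order.

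The second question was whether 6-MP changed them. None of the 8 passed in 6-MP against control, in LPS + 6-MP against LPS, in the mean effect of 6-MP or in the interaction, which tests whether the effect of 6-MP differs with LPS. The background was 0% in each of these 4 comparisons. At an unadjusted p under 0.05, 0 of 8 genes passed against 2.13%, 3.6%, 3.81% and 1.95% of all clusters, in the order given. The study's own call takes a fold of 2 or more, with an adjusted p for LPS and an unadjusted p for 6-MP. Here these limits were applied to the limma fit, so the shares below are not the study's own counts. They were also applied to comparisons that the study's text does not report. With an adjusted p these were LPS + 6-MP against 6-MP, the mean effect of LPS and the interaction. With an unadjusted p it was the mean effect of 6-MP. By this call 0 of 8 genes were called in each comparison. The share of clusters called was 1.6% in LPS against control, 1.44% in LPS + 6-MP against 6-MP and 2.08% for the mean effect of LPS, and 0.063% in 6-MP against control, 0.117% in LPS + 6-MP against LPS, 0.054% for the mean effect of 6-MP and 0% for the interaction.

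**Figure D1:**
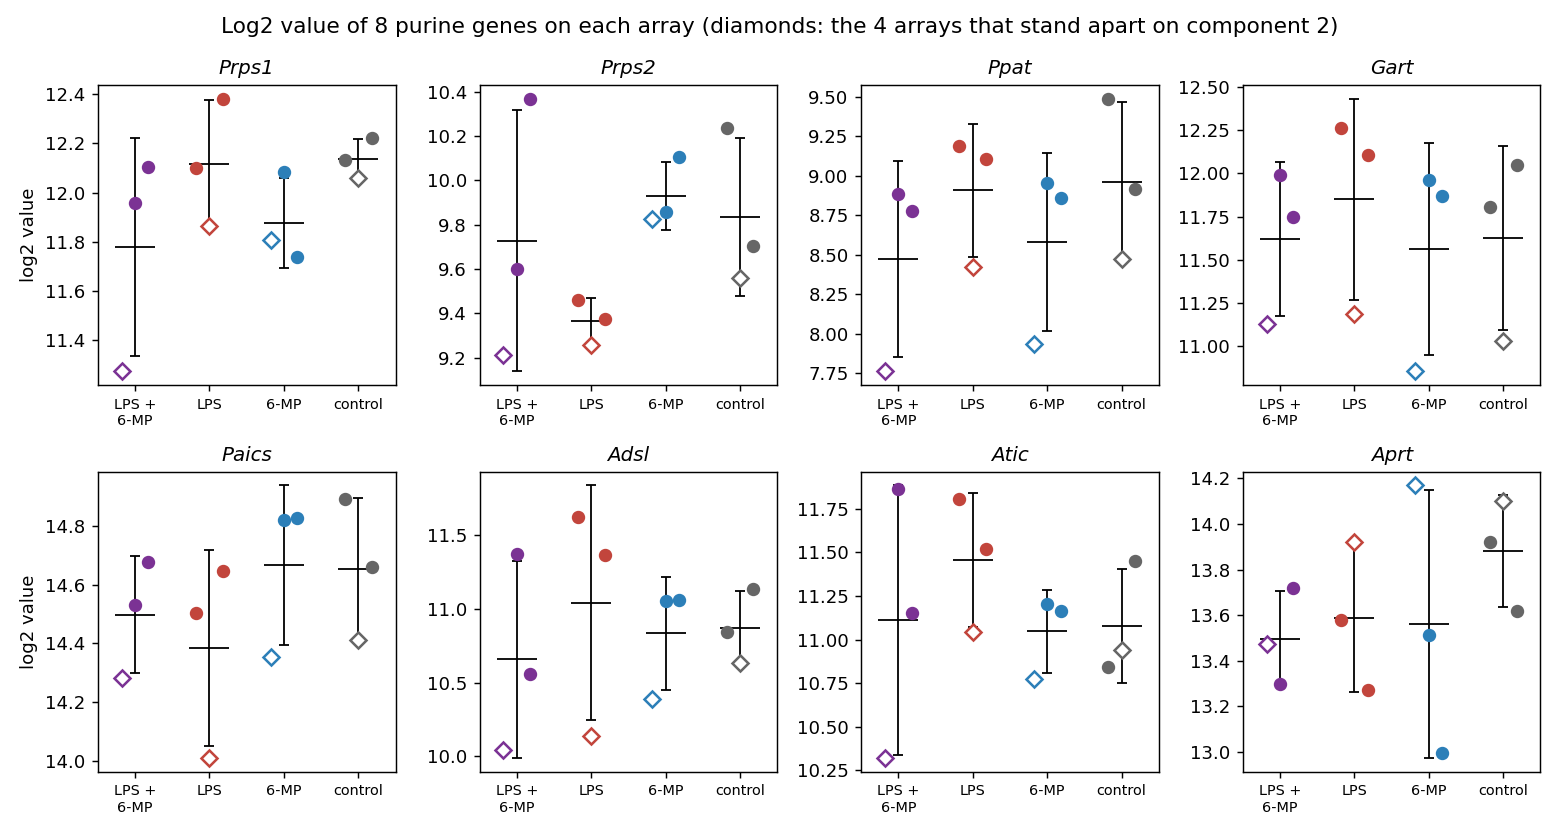
Log2 value (y axis, its own scale and not from 0 in each panel) of the 8 purine genes on every array of LPS + 6-MP, LPS, 6-MP and control cultures, with the mean and SD of 3 arrays as bars. Open diamonds are the 4 arrays that stand apart (1 a group, described below). In the 4 pairwise comparisons, only 1 gene is free of overlap in any: for Prps2 the 3 LPS arrays (9.26 to 9.46) lie under the 3 control arrays (9.56 to 10.24).

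Prps2, 1 of the 2 PRPP synthetases, had the largest change with LPS among the 8. It read 9.21, 9.60 and 10.37 in LPS + 6-MP arrays, 9.46, 9.26 and 9.38 in LPS arrays, 9.83, 9.86 and 10.11 in 6-MP arrays and 10.24, 9.56 and 9.70 in control arrays. All 3 LPS arrays lay under all 3 control arrays, which held for no other of the 8 genes and for 8.18% of all clusters. No gene had all LPS arrays above all control arrays (6.88% of clusters). In the 3 other pairwise comparisons 0 of 8 genes were free of overlap, where the share of clusters lower and higher without overlap was 2.46% and 3.45% in 6-MP against control, 3.55% and 4.74% in LPS + 6-MP against LPS, and 7.64% and 7.13% in LPS + 6-MP against 6-MP. The LPS + 6-MP arrays spanned the range of all other groups. The change was -0.47 in LPS against control (SE 0.27, 95% interval -1.06 to 0.12, adjusted p = 0.711) and -0.34 in the mean effect of LPS (SE 0.19, -0.75 to 0.08, adjusted p = 0.431, the lowest of the 8 genes). Neither passed the test. With 3 arrays against 3, an exact permutation test cannot give a p under 0.1.

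Prps1, the other PRPP synthetase, read 11.27, 11.96 and 12.10 in LPS + 6-MP arrays, 12.10, 11.86 and 12.38 in LPS arrays, 11.81, 12.08 and 11.74 in 6-MP arrays and 12.13, 12.06 and 12.22 in control arrays. The control arrays lay closest together, and 1 LPS + 6-MP array lay under all others. Its mean effect of LPS was -0.06 (SE 0.16). The mean effect of 6-MP was -0.30 (SE 0.16, 95% interval -0.65 to 0.05, unadjusted p = 0.0852, adjusted p = 1), and this p was the lowest of the 8 genes for 6-MP. For Prps2 the mean effect of 6-MP was 0.23 (SE 0.19), also not past the test.

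Ppat, the enzyme of the committed step, had the lowest estimate for 6-MP in each of the 3 comparisons with it. It read 7.76, 8.88 and 8.77 in LPS + 6-MP arrays, 9.19, 8.42 and 9.11 in LPS arrays, 7.93, 8.95 and 8.86 in 6-MP arrays and 9.49, 8.47 and 8.91 in control arrays. The groups overlapped. The change was -0.43 in LPS + 6-MP against LPS and -0.38 in 6-MP against control (SE 0.38 each). Single arrays moved both: without LPS + 6-MP 1 the first was -0.0768 and without LPS 2 it was -0.67, and without 6-MP 1 the second was -0.0525, without control 1 it was -0.11 and without control 2 it was -0.62. The mean effect of 6-MP was -0.40 (SE 0.27, 95% interval -0.98 to 0.17, unadjusted p = 0.154, adjusted p = 1), so that a fall of up to 1.98-fold lies inside the interval. The mean effect of LPS on Ppat was -0.08 (SE 0.27).

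Paics, which carries out a carboxylation and a succinocarboxamide step and lies head to head with Ppat, read 14.28, 14.53 and 14.68 in LPS + 6-MP arrays, 14.502, 14.01 and 14.65 in LPS arrays, 14.35, 14.82 and 14.83 in 6-MP arrays and 14.89, 14.41 and 14.66 in control arrays. It varied little, with group SDs of 0.20 to 0.33, and the groups overlapped. With LPS the mean effect was -0.22 (SE 0.16, adjusted p = 0.554), and that of 6-MP 0.06 (SE 0.16).

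Gart, a single protein with 3 enzyme activities of the pathway, read 11.13, 11.99 and 11.75 in LPS + 6-MP arrays, 12.26, 11.18 and 12.10 in LPS arrays, 10.85, 11.96 and 11.87 in 6-MP arrays and 11.80, 11.03 and 12.05 in control arrays. The spread within each group, with SDs of 0.45 to 0.62, exceeded every difference between group means. For LPS the mean effect was 0.14 (SE 0.27) and that of 6-MP -0.15 (SE 0.27).

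Adsl splits a succinyl group from an intermediate of the ring and again on the way to AMP. It read 10.04, 11.37 and 10.56 in LPS + 6-MP arrays, 11.62, 10.14 and 11.36 in LPS arrays, 10.39, 11.05 and 11.06 in 6-MP arrays and 10.84, 10.63 and 11.13 in control arrays. The LPS arrays alone spanned all but the lowest value of the other groups. Its mean effect of LPS was -6e-04 (SE 0.28), and its interaction of -0.35 (SE 0.56) was the lowest of the 8 genes.

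Atic, which closes the ring to IMP, read 10.32, 11.87 and 11.15 in LPS + 6-MP arrays, 11.80, 11.04 and 11.52 in LPS arrays, 10.77, 11.20 and 11.17 in 6-MP arrays and 10.84, 10.94 and 11.45 in control arrays. The 2 highest values came from arrays with LPS, but so did the lowest. It had the highest estimate for LPS among the 8, 0.38 in LPS against control (SE 0.34, 95% interval -0.37 to 1.12, adjusted p = 0.867) and 0.22 in the mean effect (SE 0.24).

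Aprt, the salvage enzyme for adenine, read 13.47, 13.30 and 13.72 in LPS + 6-MP arrays, 13.58, 13.92 and 13.27 in LPS arrays, 14.17, 13.51 and 13.00 in 6-MP arrays and 13.92, 14.10 and 13.62 in control arrays. Its highest and its lowest value were both in 6-MP arrays. The mean effects were -0.18 for LPS and -0.21 for 6-MP (SE 0.20 each). Hprt, the salvage enzyme that activates 6-MP, averaged 14.04 ± 0.44 in LPS + 6-MP arrays, 14.20 ± 0.25 in LPS arrays, 14.34 ± 0.20 in 6-MP arrays and 14.26 ± 0.17 in control arrays (SD, n = 3 each), with a mean effect of 6-MP of -0.04 (SE 0.16), not past the test.

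The intervals show how large a change these arrays leave possible. For both mean effects, which set 6 arrays against 6, all 8 intervals lay within 2-fold in either direction. The widest bounds for LPS were 1.68-fold higher (Atic) and 1.68-fold lower (Prps2), and for 6-MP 1.56-fold higher (Prps2) and 1.98-fold lower (Ppat). In LPS against control only 4 of 8 intervals lay within 2-fold, and for the interaction only 2 of 8, so a difference of 2-fold or more between the effects of 6-MP lay inside the interval for 6 genes. The median change of the 8 genes was -0.07 for the mean effect of LPS, against -0.03 over all clusters, and -0.20 for that of 6-MP, against 0.01, with 6 of 8 genes under 0 in each.

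**Figure D2:**
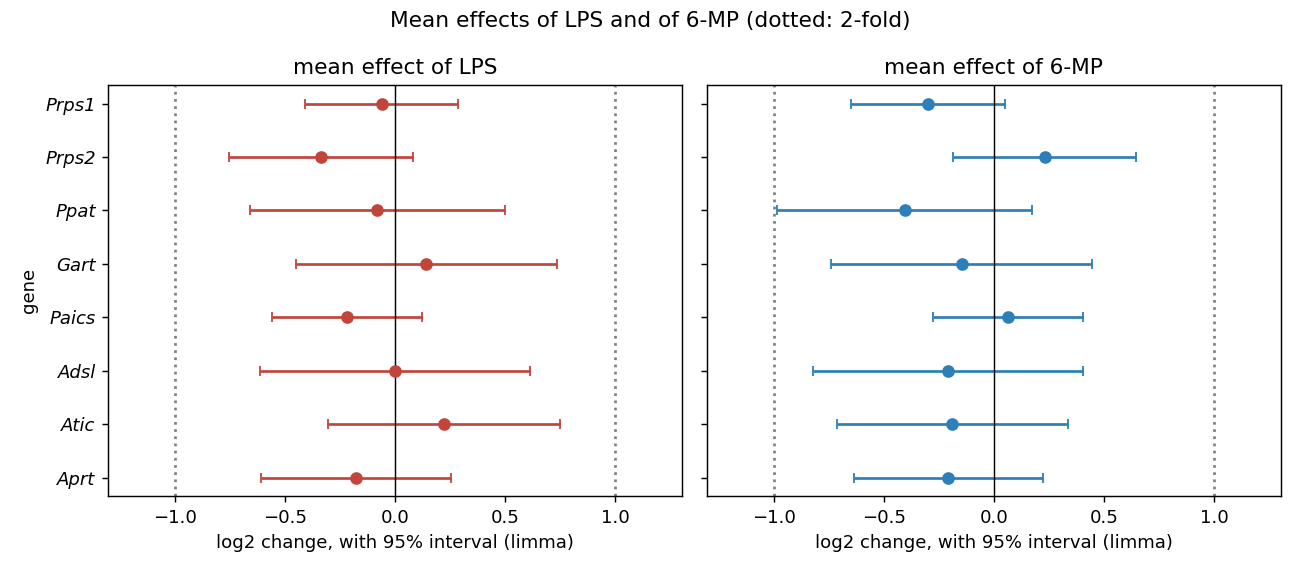
Mean effect of LPS (left, LPS + 6-MP and LPS arrays against 6-MP and control arrays) and of 6-MP (right, LPS + 6-MP and 6-MP arrays against LPS and control arrays) on the 8 purine genes (rows), as log2 change (x axis) with its 95% interval from limma. Dotted lines mark 2-fold. Every interval includes 0 and ends inside the dotted lines.

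Part of the spread of these genes ran along arrays of different groups. On component 2 of all clusters (25% of the variance), 1 array of each group scored 33.2 to 48.2 and the other 8 scored -32.5 to -8.16. These 4 were LPS + 6-MP 1, LPS 2, 6-MP 1 and control 2, and so carry no common replicate number. They were singled out by their values over all clusters, the 8 genes included, so the following is a description with no test. In these arrays Gart was lower than in the other 2 arrays of its group by a mean of 0.93 (differences of -0.74 in LPS + 6-MP, -0.999 in LPS, -1.06 in 6-MP and -0.90 in control). Ppat differed by -1.07, -0.73, -0.97 and -0.73 in the same groups, and Adsl by -0.92, -1.36, -0.66 and -0.36. For each of these genes the 4 differences thus had 1 sign and were larger in size than the mean effects of both treatments.

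The other genes of de novo synthesis went the same way and Aprt the opposite way. The mean difference was -0.61 for Atic, -0.43 for Paics, -0.38 for Prps2 and -0.34 for Prps1, but 0.43 for Aprt. The array that stands apart was the lowest of its 3 in all 4 groups for 5 of the 8 genes (Prps2, Ppat, Gart, Paics and Adsl), as for 10.4% of all clusters, and in at least 3 groups for 7 of 8, as for 23.3%. It was the highest in at least 3 groups for Aprt, as for 22.9% of clusters. The median difference over all clusters was 0.01.

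**Figure D3:**
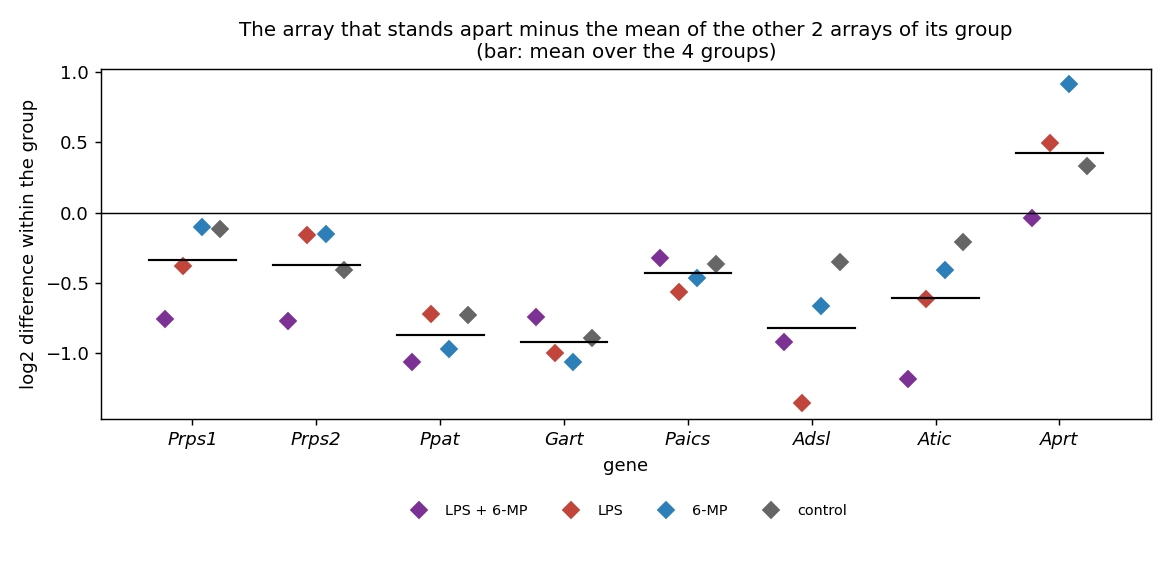
For each of the 8 purine genes (x axis), the log2 difference (y axis) between the array that stands apart and the mean of the other 2 arrays of its group, 1 diamond for each of LPS + 6-MP, LPS, 6-MP and control, with the mean of the 4 as a bar. The mean lies under 0 for the 7 genes of de novo synthesis (-0.93 to -0.34) and above it for Aprt (0.43).

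Other gene groups differed in the same 4 arrays. All 10 smooth muscle markers were lower on average, with a mean difference of -1.44, and 30 of 32 genes of the cell cycle and DNA replication were lower, with a mean of -0.37. The mean over mesenchymal markers was -0.37 (8 of 9 lower) and over macrophage markers -0.47 (9 of 11 lower). Neuronal markers were higher by 0.61 (1 of 13 lower), epithelial markers by 0.76 (1 of 12 lower) and interferon-stimulated genes by 1.77 (0 of 12 lower). Of the purine salvage genes, which include Aprt, 0 of 5 were lower (mean difference 0.26). The summed markers span wide ranges within a group: the mean log2 value of the smooth muscle list was 12.46 to 14.55 in LPS + 6-MP, 12.80 to 14.40 in LPS, 12.24 to 14.34 in 6-MP and 12.98 to 14.32 in control arrays. The part of these cell types in the spread of the purine genes was not tested.

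With these 4 arrays set against the other 8 as a covariate, the SE of a mean effect was 0.11 for Gart (0.27 without the covariate), 0.12 for Ppat (0.27), 0.10 for Paics (0.16), 0.17 for Adsl (0.28) and 0.18 for Atic (0.24). It moved less for Prps1 (0.13, against 0.16), Prps2 (0.16, against 0.19) and Aprt (0.16, against 0.20). Still, 0 of 8 genes passed at an adjusted p under 0.05 in any of the 7 comparisons. For the mean effect of 6-MP, the unadjusted limma p was 0.00627 for Ppat (-0.40, adjusted p = 0.635). For Prps1 it was 0.0392 (-0.30, adjusted p = 0.745). No other of the 8 genes had an unadjusted p under 0.05 in either mean effect. The share of all clusters under that limit was not counted with the covariate. The unadjusted p-values of Ppat and Prps1 thus have no background to be set against. At an adjusted p under 0.05, 677 of all clusters passed in LPS against control, 685 in LPS + 6-MP against 6-MP and 1913 for the mean effect of LPS. For the mean effect of 6-MP 2 passed, and 0 in the other 3 comparisons. Since the covariate was read from the same values, the smaller errors follow in part from that choice and are no support for any change. Without the 4 arrays, the mean effect of 6-MP was -0.31 for Ppat and -0.24 for Prps1, and again 0 of 8 passed.

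The mean of the 7 genes of de novo synthesis was 10.57, 11.46 and 11.34 in LPS + 6-MP arrays, 11.56, 10.85 and 11.50 in LPS arrays, 10.85, 11.42 and 11.38 in 6-MP arrays and 11.46, 11.01 and 11.45 in control arrays. In each group the array that stands apart had the lowest mean. Over the 12 arrays, Ppat (Pearson's r = 0.889), Gart (0.872) and Adsl (0.845) followed the mean of the other genes of de novo synthesis most closely, then Prps1 (0.71), Paics (0.705) and Atic (0.702), with Prps2 at 0.27 and Aprt at -0.429. With the mean of the 32 cell cycle and DNA replication genes, r was 0.825 for Paics, 0.81 for Ppat, 0.659 for Prps1, 0.582 for Prps2, 0.576 each for Gart and Adsl, 0.333 for Atic and -0.14 for Aprt, so that Paics and Prps2 followed that mean more closely than the other genes of their own pathway. Among 13472 named clusters above 5.78, the 5 genes most like the mean of the 7 were Spop (0.977), Nagpa (0.971), Srsf1 (0.968), Mex3b (0.965) and Tgfbr2 (0.965). These correlations are descriptions, since the 12 arrays share the 4 treatments and the 4 arrays that stand apart.

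Genes around the pathway gave a different picture on the side of purine breakdown. Of 15 breakdown genes, 4 rose and 0 fell in LPS cultures against control cultures, with 11 not past the test, where 1.81% of all clusters passed (median 0.17, against -0.04 over all clusters). The list was chosen with earlier results of these data known, so this count is a description only. Ampd3, which deaminates AMP to IMP, read 11.80, 11.33 and 12.03 in LPS arrays, against 9.60, 10.37 and 9.56 in control arrays. It rose 3.68-fold (log2 change 1.88, SE 0.29, adjusted p = 0.00343). After 6-MP it read 11.42, 11.99 and 12.19 in LPS + 6-MP arrays, against 10.09, 9.79 and 9.47 in 6-MP arrays, a 4.24-fold rise (2.09, SE 0.29, adjusted p = 0.00202). No array with LPS overlapped an array without it.

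Pnp, purine nucleoside phosphorylase, which frees hypoxanthine and guanine from their nucleosides, rose 2.67-fold with LPS (1.42, SE 0.20, adjusted p = 0.0022). It averaged 13.28 ± 0.31 in LPS + 6-MP arrays, 13.53 ± 0.14 in LPS arrays, 12.10 ± 0.21 in 6-MP arrays and 12.12 ± 0.23 in control arrays (SD, n = 3 each). Its close copy Pnp2 rose 2.07-fold (1.05, SE 0.24, adjusted p = 0.045), a call lost without LPS 1, 2 or 3 or control 2 or 3 (adjusted p 0.178, 0.132, 0.112, 0.168 and 0.208). Whether probes of the 2 copies share signal was not tested, so both values are uncertain. Lacc1, an enzyme of purine nucleoside cycling in macrophages, rose 2.94-fold (1.56, SE 0.24, adjusted p = 0.0041) and averaged 8.66 ± 0.29 in LPS + 6-MP arrays, 8.69 ± 0.33 in LPS arrays, 7.31 ± 0.23 in 6-MP arrays and 7.13 ± 0.37 in control arrays. In LPS + 6-MP against 6-MP, Pnp (1.18, adjusted p = 0.00928, but 0.0575 without 6-MP 3) and Lacc1 (1.355, adjusted p = 0.0128, but 0.0531 without 6-MP 1, 0.0509 without 6-MP 3 and 0.0663 without LPS + 6-MP 3) rose too. Pnp2 did not pass the limma test there (0.91, adjusted p = 0.0998). With Ampd3, 3 of 15 breakdown genes thus rose and 0 fell in that comparison, where 1.64% of all clusters passed. The mean of 11 macrophage markers was 8.94 to 9.48 in LPS + 6-MP arrays, 8.99 to 9.49 in LPS arrays, 9.52 to 10.18 in 6-MP arrays and 9.75 to 10.66 in control arrays. Every array with LPS thus lay under every array without it. In the mean effect of LPS, where 3.99% of all clusters passed, 3 of the 11 markers fell (C1qa, Cx3cr1 and Trem2) and 1 rose (Adgre1). Of the 11, 10 lay under 0 in that effect (median -0.70, against -0.03 over all clusters). The part of macrophages in these rises was not tested. Without the 4 arrays that stand apart, which leaves 2 a group, the changes stayed near their size but calls were lost. In LPS against control these were Lacc1 (1.49, adjusted p = 0.0541) and Pnp2 (0.96, adjusted p = 0.241), and in LPS + 6-MP against 6-MP Lacc1 (1.29, adjusted p = 0.0917) and Pnp (1.13, adjusted p = 0.05), and that of Pnp was also lost in a fit to these 2 groups alone (0.0741). By the methods' t-test with adjustment none of the pairwise calls of these 4 genes held (adjusted p 0.156 to 0.341), and by it 0 of all clusters passed in either comparison, while limma passed 401 and 364.

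In the mean effect of LPS, the same 4 breakdown genes passed, with Ampd3 at 3.95-fold (adjusted p = 6.88e-05). In this comparison, where 3.99% of all clusters passed, Ctps and Myc also rose among the lists of pyrimidine synthesis and of regulators. Ctps, CTP synthase, was 1 of 8 pyrimidine synthesis genes to pass, with 0 lower. It averaged 13.38 ± 0.51 in LPS + 6-MP arrays, 13.12 ± 0.43 in LPS arrays, 12.15 ± 0.54 in 6-MP arrays and 12.14 ± 0.20 in control arrays, a rise of 2.16-fold (1.11, SE 0.23, adjusted p = 0.0146). Myc, a transcription factor known to activate purine synthesis genes through E-boxes, was 1 of 11 candidate regulators to pass, with 0 lower. It averaged 13.44 ± 0.48 in LPS + 6-MP arrays, 13.54 ± 0.27 in LPS arrays, 12.42 ± 0.26 in 6-MP arrays and 12.44 ± 0.43 in control arrays, a rise of 2.09-fold (1.07, SE 0.20, adjusted p = 0.00773). In the pairwise comparisons neither passed: adjusted p was 0.0875 for Myc and 0.247 for Ctps in LPS against control, and 0.124 for Myc and 0.0987 for Ctps in LPS + 6-MP against 6-MP. For Paics and Atic, which hold the E-box, the mean effects of LPS were the -0.22 and 0.22 given above. The part of Myc in the values of these genes was not tested.

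**Figure D4:**
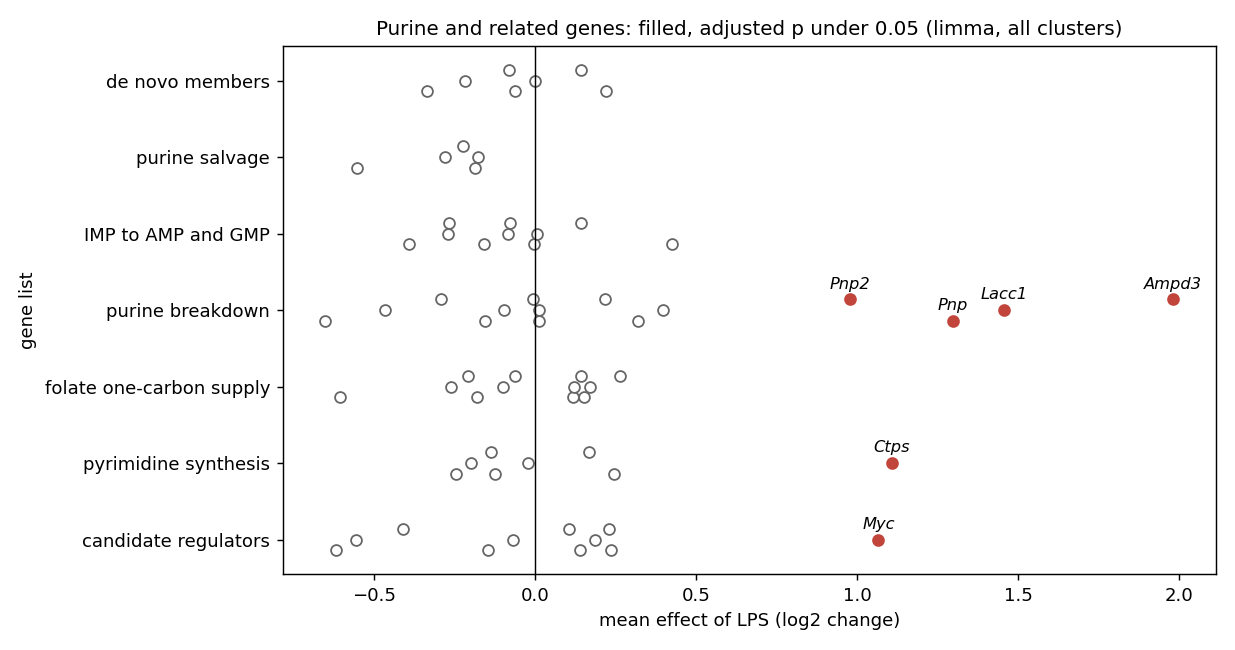
Mean effect of LPS (x axis, log2 change, LPS + 6-MP and LPS arrays against 6-MP and control arrays) for single genes of 7 lists (rows; vertical offsets within a row only separate points), with the 7 measured genes of de novo synthesis on top. Filled points have an adjusted p under 0.05 (limma, all clusters): Pnp2, Pnp, Lacc1, Ampd3, Ctps and Myc, which lie at 0.98 to 1.98, while the genes of de novo synthesis lie at -0.34 to 0.22.

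In the other lists of metabolism and cell growth, 1 gene passed. This was Ccnb2, cyclin B2, 1 of 32 genes of the cell cycle and DNA replication. It fell in the mean effect of LPS (-0.54, adjusted p = 0.0459), where 3.99% of all clusters passed. The call was lost in 11 of 12 fits with 1 array left out. In the mean effect of LPS, 31 of 32 lay under 0 (median -0.33, against -0.03 over all clusters). In LPS against control 28 of 32 did (median -0.23, against -0.04), and in LPS + 6-MP against 6-MP 31 of 32 (median -0.40, against -0.03). None passed in any of the 7 comparisons among 2 partners of PRPP synthetase, 10 genes from IMP to AMP and GMP, 5 salvage genes, 12 of folate one-carbon supply, 3 of serine and glycine synthesis, 3 of glutamine supply, 8 of the pentose phosphate pathway and 3 of ribonucleotide reductase. Within these 8 lists the gene nearest to passing was Mthfs, which returns a folate derivative to the active pool, at -0.61 in the mean effect of LPS (adjusted p = 0.0684). For 6-MP no gene of these lists passed. Within them the lowest unadjusted p for the mean effect of 6-MP belonged to Slc1a5, a glutamine carrier (-0.70, unadjusted p = 0.00362, adjusted p = 1), and for LPS + 6-MP against LPS to Gldc, a glycine-cleaving enzyme (-0.70, unadjusted p = 0.00363, adjusted p = 1).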

How the data were processed

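Total RNA of 12 cultures was hybridised to Clariom S arrays. The deposited values are log2 expression of each cluster on each array, made by the authors in the Transcriptome Analysis Console. Normalization and genome build are not given in the sources used here. Array medians were 7.41 to 7.53 and values 2.61 to 18.8. Precision is limited by the 3 arrays a group.

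After removal of 6640 controls from 28846 entries, 22206 clusters were tested unfiltered. The platform table gives 1 symbol to 19572 of them. Limma 3.58.1 (R 4.3.3) was fitted to the 4 group means (8 residual, 4.25 prior degrees of freedom), with 7 contrasts and p-values adjusted (Benjamini-Hochberg) over every cluster. A gene passed at an adjusted p under 0.05. The fit was tested on simulated data. The methods ask for p under 0.05 and at least a 2-fold change. Of the metabolic, regulator and cell cycle lists, genes past the test in any contrast were named (at most 4 a list and direction), or else up to 2 with the lowest p. The marker and interferon lists served as a check of the cultures and were summarised. The choice of these 9 genes and of all lists, breakdown included, was made with earlier results of these data known, although no value entered the rule for the 9. Promoters were searched for 3 motifs in RefSeq sequences.

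Alternatives tried were: only the compared groups in the fit, a replicate block, an intensity trend, median centring, quantile normalization, a filter on dim clusters, other thresholds, a plain t-test (named the methods' t-test, though the methods do not state it for arrays), the 4 arrays that stand apart left out or as a covariate, and each array left out in turn.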

Additional observations from a re-analysis of the deposited data

How the results depend on the processing

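None of the 8 purine genes passed in any of 131 combinations of setting and comparison, with a lowest adjusted p of 0.136 (Prps2, mean effect of LPS without LPS + 6-MP 3). Each symbol had 1 row, so no other row could be tried. The correlations of the arrays, taken as deviations from their group means, did not follow the replicate numbers. The closest array of another group had the same number in 8 of 36 cases, and 6 of 18 same-numbered pairs correlated over 0.1. Whether arrays belong together under other numbers was not tested. With the replicate block, 0 of 8 purine genes passed in each of the 7 comparisons, and 358 clusters passed for LPS against control (401 without it) and 708 for the mean effect of LPS (885 without it). With the 4 arrays, picked from these values, as a covariate these counts were 677 and 1913, and without the 4 arrays 411 and 1108. The call for Ccnb2 was lost with the replicate block (adjusted p = 0.0873), median centring (0.0827) and without the 4 arrays (0.14). With the covariate, Mthfs (adjusted p = 0.0102), H6pd (0.043) and Rbks (0.042) passed, and Rbks also without control 2 (0.045). Signs of purine genes, none past the test, turned as follows. Under median centring Prps1 was 0.0096 in LPS against control and Adsl 0.0347 in the mean effect of LPS, which was 0.0117 after quantile normalization. Without the 4 arrays, LPS against control gave Prps1 0.0633 and the PRPP synthetase partner Prpsap2 -0.12, 6-MP against control gave Adsl 0.0685 and Atic 0.0363, and LPS + 6-MP against LPS gave Aprt 0.0836. LPS + 6-MP against 6-MP gave Prps1 0.12, Prps2 0.0018, Gart -0.047 and Aprt 0.25, the mean effect of LPS gave Prps1 0.0922 and Adsl 0.21, and the interaction gave Prps1 0.0577 and Paics -0.0175. With 1 array left out at a time, signs turned in the following results, given as lowest and highest value. In 6-MP against control these were Adsl (-0.15 and 0.19), Atic (-0.15 and 0.15), Gart (-0.36 and 0.29), Paics (-0.11 and 0.17) and Prps2 (-0.0397 and 0.30). In LPS + 6-MP against 6-MP these were Adsl (-0.53 and 0.13), Aprt (-0.35 and 0.24), Atic (-0.31 and 0.46), Gart (-0.29 and 0.31), Ppat (-0.43 and 0.25), Prps1 (-0.26 and 0.16) and Prps2 (-0.52 and 0.0539). In LPS + 6-MP against LPS these were Aprt (-0.25 and 0.0716), Atic (-0.72 and 0.0517), Gart (-0.56 and 0.0194) and Paics (-0.0763 and 0.24). In LPS against control these were Adsl (-0.12 and 0.63), Gart (-0.0749 and 0.56), Ppat (-0.29 and 0.21), Prps1 (-0.16 and 0.10) and Prpsap2 (-0.0240 and 0.21). In the interaction these were Aprt (-0.0553 and 0.53), Atic (-0.69 and 0.0836), Gart (-0.52 and 0.14), Paics (-0.0902 and 0.23), Ppat (-0.38 and 0.30), Prps1 (-0.24 and 0.18) and Prps2 (-0.0564 and 0.52). In the mean effect of 6-MP these were Atic (-0.38 and 0.0099), Gart (-0.31 and 0.0315) and Paics (-0.0312 and 0.14), and in the mean effect of LPS Adsl (-0.18 and 0.23), Gart (-0.0350 and 0.31), Ppat (-0.24 and 0.0986) and Prps1 (-0.14 and 0.0660). The cause was not tested.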
